A study of Mus musculus with 2 samples.

Results

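Gland fibroblast nuclei were the nuclei of whole mouse salivary gland whose RNA held the transcripts of mesenchymal matrix and growth factor genes. A barcode was kept as a nucleus where it had at least 1000 unique molecular identifiers (UMIs, which count captured RNA molecules) and under 27% of its UMIs from 8 secretory genes (Mucl2, Scgb1b27, Scgb2b27, Prol1, Smgc, Scgb2b26, Pip and Car6). It was taken as a fibroblast nucleus where at least 4 of 10 marker genes (Slit3, Adamts12, Fgf10, Lama2, Bicc1, Ebf3, Pappa, Pdgfra, Ebf1 and Cdh11) had at least 1 UMI. The rule found 2815 fibroblast nuclei among 21480 nuclei of both libraries. There were 1613 of 13096 nuclei in the Csf2-/- library, called null below, and 1202 of 8384 in the Csf2+/- library, called control. Both were given as C56BL/6 in the labels and came from glands at 20 days of age, with no selection of a cell type and no other treatment named. Csf2 encodes GM-CSF, a growth factor for granulocytes and macrophages, and the control carried a disrupted allele too. The labels did not say how many animals or which of the salivary glands entered a library.

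Fibroblasts of the salivary gland fill the stroma around acini and ducts. They secrete fibrillar collagens and proteoglycans, contribute to the basement membrane under the epithelium, and release diffusible signals that epithelial, endothelial, nerve and immune cells receive. FGF10 from the mesenchyme, acting through its receptor FGFR2b on epithelium, is needed for the salivary glands to form, and platelet-derived growth factor receptors mark the fibroblast lineage in many organs.

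Each genotype had 1 library, so no test of genotype was possible and no p-value is given. Levels are a gene's summed UMIs in the fibroblast nuclei per 1000000 of their UMIs (CPM), and a log2 ratio is that of null over control with an exact 95% interval, which covers counting error only and not the spread between animals. Below, a gene is called higher or lower in null nuclei only where that interval excludes 0. The fibroblast nuclei held 4525583 UMIs in the null library and 4271541 in the control library. Their median depth was 2237 UMIs in null nuclei and 3182 in control nuclei. Csf2 had 0 UMIs in the fibroblast nuclei of either library, and 0 and 5 UMIs in the whole null and control libraries, which is too few to check the genotype. Free RNA, which leaks from broken cells into every droplet, was seen as secretory transcripts. These made up 15.9% of the UMIs of null and 12.2% of those of control fibroblast nuclei, against 45.5% and 36.8% in the low-depth barcodes taken as free RNA in the same libraries. Free RNA was estimated from them at 34.9% of the UMIs of null and 33.1% of those of control fibroblast nuclei. The libraries shared 1367 barcodes, of which 1 was a fibroblast nucleus in both. A doublet caller marked 2 null and 3 control fibroblast nuclei and 0.0687% and 0.0358% of all nuclei, too few to have worked, so no nucleus was removed. All fibroblast nuclei of both libraries held a UMI in at least 3 acinar markers, which are abundant in the free RNA, so acinar and mucous acinar markers were left out when nuclei with markers of another class were counted. At least 3 markers of a further class had a UMI in 665 null fibroblast nuclei (41.2%) and 787 control ones (65.5%). For nearly all of them the class was luminal duct (38.9% and 63.1%), whose transcripts were also in the free RNA at 3448 CPM in the null and 4547 CPM in the control library. Schwann cell markers were met in 2.85% of null and 3.99% of control fibroblast nuclei, and endothelial ones in 1.12% and 1.75%.

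The label was checked with markers that the rule did not use. Of 15 further fibroblast genes, among them those for collagens I and III, decorin and the transcription factor Prrx1, 14 reached 2 times the level of the other nuclei, or more, in both libraries, and Tcf21 was at 0 UMIs. Their summed level was 3781 CPM in null and 4243 CPM in control fibroblast nuclei, against 372 CPM and 356 CPM in the other nuclei of the null and control libraries. All 7 interstitial fibroblast markers found in the files passed the same fold, at 3294 CPM in null and 3869 CPM in control fibroblast nuclei against 439 CPM and 625 CPM in other nuclei. Of 11 markers of adventitial fibroblasts, which surround vessels, 4 did: Pi16, Cd34, Clec3b and Creb5. None of 7 smooth muscle and myofibroblast markers did (74.0 CPM in null and 72.1 CPM in control fibroblast nuclei, 138 CPM and 131 CPM in other nuclei). Of 8 pericyte markers 5 did, at a summed 168 CPM in null and 178 CPM in control fibroblast nuclei against 38.6 CPM and 32.8 CPM in the other nuclei, so the rule did not separate pericytes fully. The label thus held for markers outside the rule, summed over the same nuclei. It did not hold equally for each of them. Without 7 subclusters that carried markers of another class, described below, 1280 null and 936 control fibroblast nuclei remained. Ratios below are over all fibroblast nuclei unless stated otherwise.

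The number of nuclei was lowest at 4 markers in the null library (65 nuclei) and at 5 markers in the control library (44 nuclei), so the threshold of 4 lay at or just below the dip. Nuclei with exactly 4 markers numbered 65 in the null library and 103 in the control library, and their 15 other fibroblast genes summed to 1917 CPM and 1085 CPM. Nuclei with exactly 3 markers, just outside, numbered 171 null and 391 control, at 828 CPM and 515 CPM. With 7 markers the sum was 3880 CPM in null and 4916 CPM in control nuclei, and with 0 markers it was 346 CPM and 321 CPM. The step from 4 to 7 markers was thus steeper in the control library, where nuclei were deeper.

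**Figure D1:**
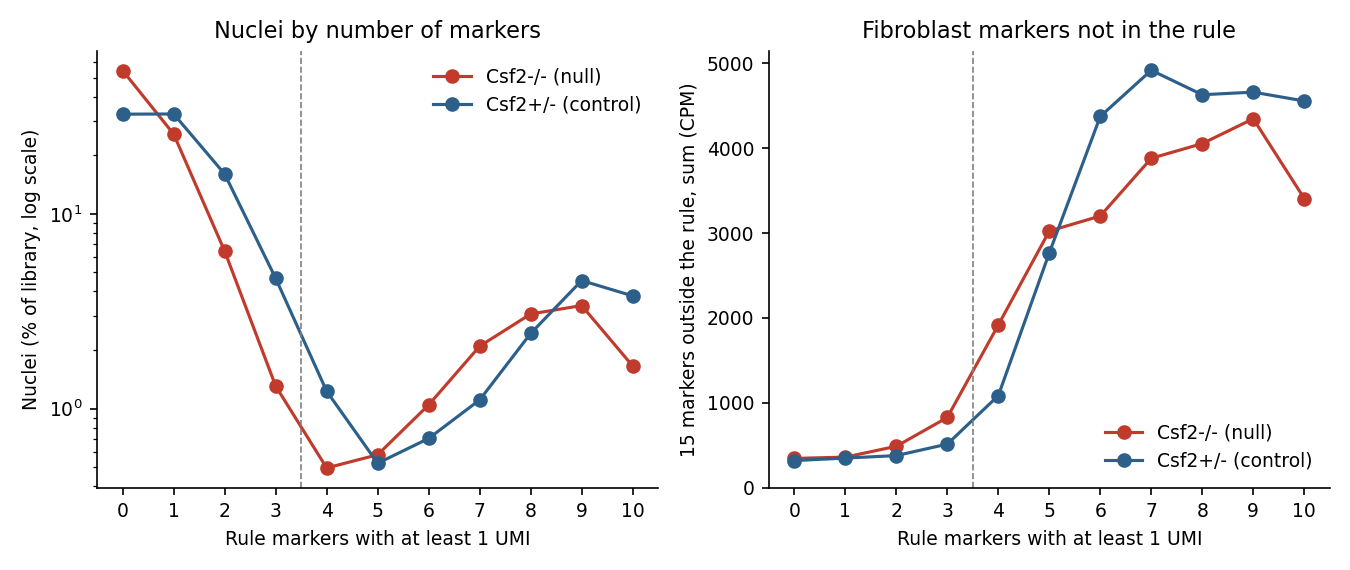
Nuclei of the null (red) and control (blue) library by the number of the 10 rule markers with a UMI: left, their share of all nuclei on a log axis; right, the summed CPM of 15 fibroblast genes outside the rule, with the dashed line at the threshold. Counts dip near 4 to 5 markers (65 null and 103 control nuclei with exactly 4), and the genes outside the rule climb across the threshold to 3880 CPM in null and 4916 CPM in control nuclei with 7 markers.

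Fibroblast nuclei made up 12.3% of null nuclei (95% exact interval 11.8 to 12.9) and 14.3% of control nuclei (13.6 to 15.1). The log2 ratio of these shares was -0.22 (-0.33 to -0.11). The direction depended on the filter that makes a nucleus: with under 20% secretory UMIs required, the shares were 18.3% of 7218 null nuclei and 14.9% of 7629 control nuclei, a log2 ratio of 0.30, and with at least 2000 UMIs the log2 ratio was -0.03. With each nucleus thinned to 1000 UMIs, the shares were 11.2% of null and 12.4% of control nuclei, a log2 ratio of -0.14 (-0.26 to -0.03). With at least 5 markers it was -0.15 (-0.26 to -0.04). No order of the 2 libraries in fibroblast share can be read from these values.

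Outside the 10 rule markers, genes of stromal identity stood furthest above the other nuclei in both libraries. Of 6110 genes with enough UMIs, 545 were at least 4-fold higher in fibroblast than in other nuclei of both libraries, a description only, since the same nuclei were chosen by genes that go with these. The 25 highest by the lower of the 2 folds had a median fold of 48.7 in the null and 47.3 in the control library. Of the 25, 24 were again among the leading 25 with at least 5 markers, and 24 with at least 2000 UMIs. After subtraction of the estimated free RNA 4 were, but there the median control fold was infinite, as other nuclei kept no UMIs of such genes. With under 10% secretory UMIs none was, but only 505 genes had the 100 UMIs per library needed to be ranked. Neither of these low overlaps can show whether the leading genes depend on the processing. Matrix genes among the 25 were Col24a1, Col26a1 and Col6a6 (collagen chains), Lamc3 (a laminin chain), Adamtsl2 (a matrix protein that binds fibrillin) and Crispld2. Dchs2, a large protocadherin, was 57.2-fold higher in null and 58.9-fold higher in control fibroblast nuclei than in the others. Tbx15, a transcription factor of mesenchyme, was 54.7-fold and 60.6-fold higher. Signals were present too: Rspo1, an R-spondin that strengthens WNT signalling, stood 54.7-fold and 50.4-fold above the other nuclei, and Rspo3 stood 44.4-fold and 42.7-fold above them. The list also held receptors and membrane proteins, namely Ptger3 (a prostaglandin E2 receptor), Mrc2 (which takes up collagen), Scara5 (a ferritin receptor), Adam12 (a membrane metalloprotease), Tspan11, Lrrtm3, Lrfn2, Kcnk2 (a potassium channel) and the peptidases Lvrn and Trhde. C1qtnf7, Rnf182, B3galt1, Sphkap and the catenin Ctnna3 completed it.

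Between genotypes, 11039 genes had at least 50 UMIs over both libraries. Of these, 1378 were higher in null fibroblast nuclei (12.5% of genes) and 2086 were lower (18.9% of genes), with a median log2 ratio of -0.03. At least 2-fold, 105 were higher (0.951% of genes) and 183 were lower (1.66% of genes). The balance followed the scaling. After subtraction of the estimated free RNA, 2076 genes were higher and 1397 lower, and with the 132 most abundant free RNA genes left out of the totals, 2091 were higher and 1362 lower. The other nuclei, with more UMIs, had 2309 genes higher and 4718 lower among 13894, so a lower count in the null library was not particular to fibroblasts. Among the 6736 genes with at least 200 UMIs, 946 were higher and 1697 lower, so both shares were larger for well counted genes. Counts for the gene groups below are to be read against these shares.

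Fibroblast nuclei with little secretory RNA gave a further view. Those with under 10% secretory UMIs numbered 62 null and 222 control nuclei, and 601 genes were higher and 617 lower among 5517 measured in them. Of the genes named here that were lower in all null fibroblast nuclei, 102 could be measured in these. There 74 were still lower, 25 had the same sign within counting error and 3 had the opposite sign, and the ratio was further from 0 for 66 and nearer to it or opposite for 36. A control nucleus with neuronal transcripts, described below, was among the 222, at 1.90% secretory UMIs. The 74 thus include Alk, Nrg3, Lingo2, Elavl4, Gabrg3, Kcnip4, Ctnna2, Prune2, Rbfox1, Fgf14 and Elavl2, whose control UMIs lay mostly in that nucleus. Those genes do not describe fibroblasts. Among the 66, 5 picked after their values were seen show the size: the log2 ratio of Nr4a3 was -3.24 (-4.17 to -2.45), that of Pde10a -1.77, of Col1a1 -1.85, of Plod2 -1.55 and of Fgf10 -0.99 (-1.14 to -0.84). Ppargc1a was among the 36, with -0.29 (-0.62 to 0.03) there and -1.36 in all fibroblast nuclei. Of the named genes that were higher in all null fibroblast nuclei, 35 could be measured, of which 13 were still higher, 10 had the same sign within counting error and 12 had the opposite sign. A lost call in so few nuclei does not show that a gene did not differ. Each of the 10 rule markers also had a lower ratio there than in all fibroblast nuclei. Examples were Pdgfra (-0.91, against -0.39), Ebf1 (-0.57, against -0.31) and Lama2 (-0.57, against -0.06). Relative to control ones, the null nuclei of this subset thus held less of the rule markers. The part of this in the other ratios was not tested.

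The ratio went with the length of the gene. By genomic span in RefSeq (10602 genes, 96.0% of those measured), the 2651 shortest genes had a median log2 ratio of 0.15, with 23.6% of genes higher and 6.83% lower in null fibroblast nuclei. The 2651 longest, above 71.2 kb, had a median of -0.14, with 7.43% higher and 38.8% lower. After subtraction of free RNA the medians of the shortest and the longest genes were 0.15 and -0.01, so the longest were then near 0 and the order was kept. The other nuclei had medians of 0.07 and -0.18 for the same genes. Counts in lists of long genes were not corrected for this trend, and its part in them was not tested. The adhesion genes described below had a median span of 249 kb, against 29.4 kb for all genes and 2.88 kb for immediate early genes. Median spans above 71.2 kb were also found for fibrillar collagens (121 kb), other interstitial collagens (126 kb) and basement membrane genes (114 kb). The same held for hormone and growth factor receptors (108 kb) and BMP and TGF-beta genes (79.6 kb). Counts in these lists are to be set beside the shares of the longest genes.

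**Figure D2:**
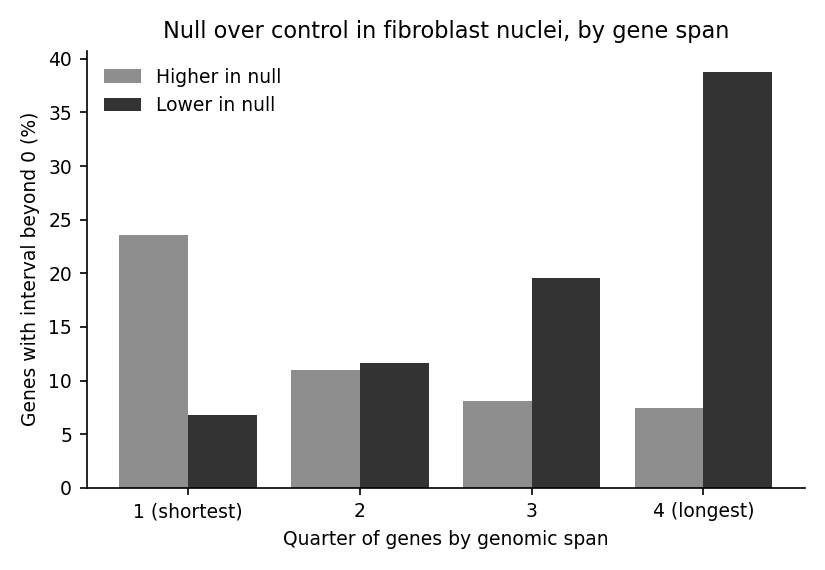
Share of genes, in %, with the log2 ratio of null over control fibroblast nuclei above 0 (grey) or below 0 (black) beyond the counting interval, by 4 groups of genes from shortest to longest genomic span. Higher genes go down across the groups (23.6% in the shortest, 7.43% in the longest) while lower genes go up (6.83% in the shortest, 38.8% in the longest).

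The 15 genes furthest below the control, ranked by the bound of the interval nearest 0, were almost all neuronal and came from 1 nucleus. A control barcode with 30111 UMIs, 1.90% of them secretory, and 6 rule markers held 2098 of the 3816 control UMIs of these genes. It held 92 of the 95 UMIs of Alk, a receptor tyrosine kinase of neurons, and 117 of the 121 of Nrg3, a neuregulin. It held 44 of the 49 of Vip, the neuropeptide of parasympathetic neurons, and 74 of the 81 of Elavl4, a neuronal RNA-binding protein. For Kcnip4, which binds potassium channels, it held 725 of 816, and for the splicing factor Rbfox1 507 of 628. Gabrg3, Lingo2, Ctnna2, Prune2, Dpp6, Fgf14, Elavl2 and Nwd2 were like them, with 80.0% to 98.3% of control UMIs in that nucleus over the 14 genes. Nr4a3 was the exception, with 2 of its 1449 control UMIs there. These 14 genes describe 1 nucleus that met the rule, not control fibroblasts. Without it, 1374 genes were higher and 2037 lower, and at least 2-fold 110 were higher and 141 lower.

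**Figure D3:**
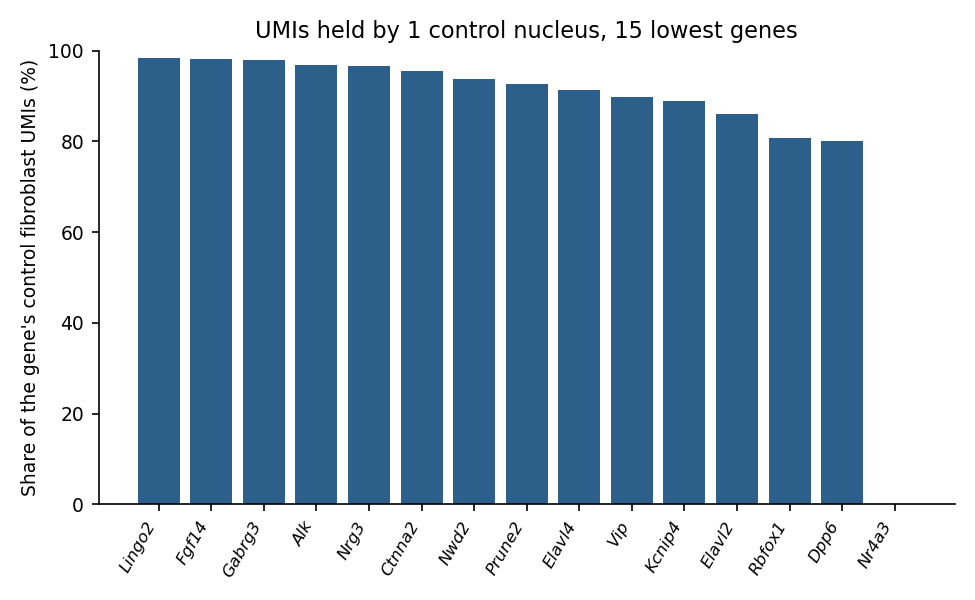
Share, in %, of each gene's UMIs over all 1202 control fibroblast nuclei that lay in 1 nucleus, for the 15 genes furthest below the control. The bars stand between 80.0% and 98.3% for 14 genes, while Nr4a3 has nearly none of its UMIs there.

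For that reason genes were ranked again, after these values were seen, with genes left out where any nucleus held over 10% of their UMIs. Nr4a3 (ENSMUSG00000028341), an orphan nuclear receptor induced at once by cAMP and other stimuli, was then lowest. It had 277 UMIs in null and 1449 in control fibroblast nuclei, or 61.2 CPM and 339 CPM, a log2 ratio of -2.47 (-2.66 to -2.28). At least 1 UMI was seen in 11.2% of null and 42.3% of control fibroblast nuclei. The gene was lower in the other nuclei of the null library as well (48.1 CPM, against 102 CPM in the control; log2 -1.09) and in its free RNA (23.7 CPM against 95.9 CPM), but by less in the other nuclei than in fibroblast nuclei. That difference was not tested. After subtraction of free RNA its log2 ratio in fibroblast nuclei was -2.50 (-2.71 to -2.30).

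The next lowest genes were spread over several roles. Fosl2, a member of the AP-1 transcription factors, had 17.7 CPM in null and 67.7 CPM in control fibroblast nuclei (log2 -1.94), and Jdp2, which dimerises with them, a log2 ratio of -1.53. Ppargc1a, a coactivator of genes for mitochondria, had 128 CPM and 330 CPM (log2 -1.36), and was lower in other nuclei too (log2 -1.58), but in nuclei with under 10% secretory UMIs it was within counting error. Pde10a, a phosphodiesterase that breaks down cAMP and cGMP, had 2633 UMIs in null and 5774 in control fibroblast nuclei, or 582 CPM and 1352 CPM (log2 -1.22, -1.28 to -1.15). Its log2 ratio in other nuclei was -0.46. Csrp2, a LIM protein of smooth muscle and mesenchyme, had 31.4 CPM and 104 CPM (log2 -1.73, with -0.20 in other nuclei), and the kinase Plk2, induced by activity, had 33 null and 125 control UMIs (log2 -2.00, with -0.18 in other nuclei). Alpl, tissue-nonspecific alkaline phosphatase, had 11 null and 63 control UMIs (log2 -2.60, -3.67 to -1.67). The others were Kcne4 (log2 -2.54), Pi15 (log2 -1.78), Adamts18, Adamts19, Slc35f1, Cyp51 (log2 -1.87), a step of cholesterol synthesis, and Gem (log2 -1.54), a small GTPase. Adamts18 and Slc35f1 were also among the leading genes of subclusters that carried myoepithelial and Schwann cell markers.

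Because cAMP acts on many promoters through the cAMP response element (CRE), the promoters of 3 of these genes are shown, from RefSeq on build GRCm38.p6, from 250 bases before to 50 after the annotated start, with its core motif (TGACG, either strand) in capitals. Nr4a3 and Plk2 are shown as low genes that carry it, and Fgf10, described next, as one that does not.
Nr4a3, chr4:48045055-48045354, plus strand: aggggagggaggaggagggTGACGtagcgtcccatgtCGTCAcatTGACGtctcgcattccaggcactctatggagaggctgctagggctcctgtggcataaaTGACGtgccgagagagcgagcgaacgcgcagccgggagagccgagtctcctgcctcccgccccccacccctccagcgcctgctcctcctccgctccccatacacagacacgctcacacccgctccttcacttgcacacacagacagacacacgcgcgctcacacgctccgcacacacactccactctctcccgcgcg
Plk2, chr13:110394794-110395093, plus strand: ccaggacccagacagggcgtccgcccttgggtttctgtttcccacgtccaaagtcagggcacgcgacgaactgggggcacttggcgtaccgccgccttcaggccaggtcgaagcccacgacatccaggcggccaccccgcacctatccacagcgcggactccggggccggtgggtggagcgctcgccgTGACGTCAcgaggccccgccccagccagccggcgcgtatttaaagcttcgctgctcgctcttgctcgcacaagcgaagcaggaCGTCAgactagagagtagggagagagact
Fgf10, chr13:118714449-118714748, plus strand: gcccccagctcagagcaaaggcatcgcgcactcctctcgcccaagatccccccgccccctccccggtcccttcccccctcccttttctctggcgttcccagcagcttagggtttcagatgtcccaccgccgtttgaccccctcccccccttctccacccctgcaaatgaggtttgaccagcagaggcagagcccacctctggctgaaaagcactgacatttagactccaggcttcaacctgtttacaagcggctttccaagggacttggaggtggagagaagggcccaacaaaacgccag
In Nr4a3 the core motifs began 231, 213, 205 and 147 bases before the start. In Plk2 the full element TGACGTCA, in which 2 core motifs overlap, began 62 bases before the start, and a further core motif lay 21 bases after it. Of 22862 promoters of this length, 4706 (20.6%) held a core motif and 423 (1.85%) the full element. Among the 15 lowest genes ranked in this way 8 had a promoter in the table, 5 of them with a core motif and 1 with the full element. Among the 15 highest 10 had one, 1 with a core motif and none with the full element. These are matches of letters only.

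The wider group of 28 regulators linked to fasting and cAMP had 26 measured members, of which 4 were higher and 16 lower in null fibroblast nuclei, with a median log2 ratio of -0.38 against -0.03 for all genes. In the other nuclei the median of the group was -0.28, so the direction was shared. Bcl6, a transcriptional repressor, had 71.6 CPM in null and 155 CPM in control fibroblast nuclei (log2 -1.11), and Irs2, an adaptor of the insulin receptor, had 88.6 CPM and 189 CPM (log2 -1.09). Nr4a1, the paralogue of Nr4a3, had 70.3 CPM and 137 CPM (log2 -0.96), and Nr4a2 188 CPM and 250 CPM (log2 -0.41). Sik1, a kinase induced by cAMP, had a log2 ratio of -0.93, and Crem, a cAMP-responsive factor, of -0.73. In nuclei with under 10% secretory UMIs these 4 were within counting error, at -0.52 for Nr4a1, -0.12 for Nr4a2, -0.49 for Sik1 and -0.23 for Crem. On the higher side were Klf15 (50.6 CPM in null, 30.7 CPM in control; log2 0.72), a glucocorticoid-induced factor, Irs1 (log2 0.38), Crtc3 (log2 0.34), a coactivator of CREB, and Pde4d (log2 0.10). Irs1 and Crtc3 had ratios of 0.19 (-0.34 to 0.70) and 0.18 (-0.25 to 0.60) in nuclei with under 10% secretory UMIs. For Pde4d, a phosphodiesterase of cAMP, the ratio turned to -0.64 (-0.73 to -0.55) when subclusters with markers of other classes were left out. With under 10% secretory UMIs the Pde4d ratio was 1.10, higher beyond counting error. The direction of Pde4d in fibroblast nuclei was thus not settled. The glucocorticoid target Fkbp5 did not differ beyond counting error (387 CPM and 384 CPM), while Tsc22d3, another, was lower (95.9 CPM and 136 CPM; log2 -0.50; -0.47, within counting error, with under 10% secretory UMIs).

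Fgf10 (ENSMUSG00000021732), the epithelial growth factor of the gland mesenchyme, was lower in null fibroblast nuclei at 6295 UMIs against 9665 in control ones. That was 1391 CPM and 2263 CPM, a log2 ratio of -0.70 (-0.75 to -0.66), with a UMI in 84.3% of null and 86.6% of control fibroblast nuclei. Since Fgf10 was itself in the rule, fibroblast nuclei were also chosen on the other 9 markers alone, which gave a log2 ratio of -0.75 (-0.79 to -0.70). The few Fgf10 UMIs of the other nuclei differed alike (33.8 CPM and 55.7 CPM), as did those of the free RNA (78.3 CPM and 178 CPM).

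The other rule markers differed less, and they describe how the chosen nuclei compare rather than test the choice. Slit3, a secreted guidance ligand of Robo receptors, was higher (1666 CPM in null and 1399 CPM in control; log2 0.25, 0.20 to 0.30), though not in nuclei with under 10% secretory UMIs, where its log2 ratio was -0.13. In other nuclei the Slit3 ratio was -0.26. Pdgfra, the receptor of the lineage, had 523 CPM and 684 CPM (log2 -0.39), and Cdh11, the mesenchymal cadherin, had 508 CPM and 658 CPM (log2 -0.37). The transcription factors Ebf3 and Ebf1 had log2 ratios of -0.33 and -0.31, and the metalloprotease Adamts12 one of -0.26. Bicc1 (log2 -0.12), Pappa (log2 -0.10), a protease of IGF-binding proteins, and Lama2 (log2 -0.06), a laminin chain, were closest to 0. For Pappa and Lama2 the sign turned under some settings, to 0.05 and 0.04 where each nucleus was given the same weight.

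Across secreted growth factors of the FGF, HGF, IGF, PDGF and VEGF families and their binding proteins, 21 of 29 listed genes were measured, 1 was higher and 11 were lower, with a median log2 ratio of -0.37. In other nuclei the median was -0.39. Fgf2 had 31.6 CPM in null and 55.0 CPM in control fibroblast nuclei (log2 -0.80). Pdgfc, Pdgfd, Vegfa and Vegfc, ligands for fibroblasts and vessels, had log2 ratios of -0.69, -0.55, -0.51 and -0.55. In nuclei with under 10% secretory UMIs Pdgfc had one of 0.09, and Fgf2 (-0.48), Pdgfd (-0.11), Vegfa (-0.30) and Kitl (-0.13) were within counting error. Kitl, the ligand of the mast cell and melanocyte receptor Kit, was lower by less (91.3 CPM and 111 CPM; log2 -0.28). Igfbp3, a carrier of IGFs, was the higher one, with 148 null and 69 control UMIs, or 32.7 CPM and 16.2 CPM (log2 1.02, 0.60 to 1.45). Igf1 itself had 144 CPM and 142 CPM, and Fgf7, a sister ligand of Fgf10, had 66.1 CPM and 72.6 CPM, both within counting error. Igf1 was lower in nuclei with under 10% secretory UMIs, however, with a log2 ratio of -1.23 (-1.91 to -0.61).

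Collagen transcripts were mostly lower. Of 9 measured fibrillar collagen genes none was higher and 6 were lower, at a summed 2257 CPM in null and 2750 CPM in control fibroblast nuclei and a median log2 ratio of -0.27. Of 12 measured other interstitial collagens none was higher and 8 were lower (1228 CPM and 1550 CPM; median -0.31). The medians in other nuclei were -0.33 and -0.35, so in size these lists did not stand apart from the rest of the gland. Col1a1, the main chain of collagen I, had 335 UMIs in null and 617 in control fibroblast nuclei, or 74.0 CPM and 144 CPM (log2 -0.96, -1.16 to -0.77). Its partner Col1a2 had 451 CPM and 482 CPM (log2 -0.10, -0.18 to -0.01). The 2 chains of 1 protein thus differed unequally, with intervals that did not overlap. Col3a1, the chain of collagen III, lay between them (564 CPM and 725 CPM; log2 -0.36). Col6a6 and Col6a5, chains of collagen VI with restricted expression, were the lowest, with log2 ratios of -1.16 and -1.34, while Col6a2 (120 CPM and 107 CPM), Col5a3 and Col12a1 did not differ beyond counting error.

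Of 24 measured basement membrane genes 1 was higher and 11 lower (median log2 -0.19, and -0.25 in other nuclei). Lamc1, the common gamma chain of laminins, had 349 CPM in null and 581 CPM in control fibroblast nuclei (log2 -0.73). Col4a1 had 485 CPM and 740 CPM (log2 -0.61, -0.69 to -0.53), whereas Col4a2, which is transcribed from the same bidirectional promoter and joins it in 1 protein, had 1798 null and 1673 control UMIs (log2 0.02, -0.08 to 0.12). Ntn4, a netrin of basement membranes, was the higher member (log2 0.69), but had a ratio of -0.40 without the nuclei that carried markers of another class. Among 19 elastic fibre genes 1 was higher and 5 lower (median log2 -0.14). Fbn1, the main fibrillin, had 272 CPM and 431 CPM (log2 -0.67), Fbn2 a log2 ratio of -0.80 (-0.67, within counting error, with under 10% secretory UMIs) and elastin (Eln) one of -0.32.

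Enzymes that modify and fold collagen included 17 measured genes, of which none was higher and 7 were lower, with a median log2 ratio of -0.18. Plod2, which hydroxylates collagen lysines for cross-links, had 491 UMIs in null and 993 in control fibroblast nuclei, or 108 CPM and 232 CPM (log2 -1.10, -1.26 to -0.94; -0.35 in other nuclei). P4ha2, a prolyl hydroxylase subunit, had 15.7 CPM and 35.8 CPM (log2 -1.19), and its paralogue P4ha1 had 146 CPM and 148 CPM. Serpinh1, the collagen chaperone, had 36.5 CPM and 63.9 CPM (log2 -0.81; -0.14 in other nuclei), and with under 10% secretory UMIs its ratio of -0.94 (-2.06 to 0.04) was within counting error.

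Matrix proteoglycans and glycoproteins split. Of 24 measured, 6 were higher and 11 were lower, with a median log2 ratio of -0.38, against 0.01 in other nuclei. Dcn (decorin), which binds collagen fibrils, had 2006 UMIs in null and 1298 in control fibroblast nuclei, or 443 CPM and 304 CPM (log2 0.54, 0.44 to 0.65). The small leucine-rich proteoglycans Ogn and Bgn (log2 0.73 and 0.41), the calcification inhibitor Mgp (log2 0.38) and tenascin X (Tnxb; log2 0.35) were higher with it, and so was Podn (log2 0.24). In nuclei with under 10% secretory UMIs the ratios were 0.09 for Dcn (-0.22 to 0.39), -0.04 for Bgn, -0.14 for Mgp and -0.23 for Podn, so none of these 4 was higher beyond counting error there. Decorin, biglycan and Mgp were higher in the other nuclei of the null library too (log2 0.31, 0.33 and 0.77). The lower side held fibronectin (Fn1; 30.3 CPM and 55.7 CPM, log2 -0.88), versican (Vcan; log2 -0.79), periostin (Postn; log2 -0.76), osteonectin (Sparc; log2 -0.56) and thrombospondin 1 (Thbs1; log2 -1.38). Dermatopontin (Dpt) was lower at 32.0 CPM, against 69.8 CPM in control fibroblast nuclei (log2 -1.12). Dpt and Sparc were within counting error in nuclei with under 10% secretory UMIs, at -0.16 (-1.09 to 0.68) and -0.38 (-1.01 to 0.21). Tenascin C (Tnc) had 8 null and 45 control UMIs, of which 1 control nucleus held 12. Lumican (Lum) did not differ beyond counting error (39.6 CPM and 41.2 CPM).

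Among 26 measured matrix proteases and inhibitors 5 were higher and 11 lower (median log2 -0.23). Adamts9, a metalloprotease of versican, had 323 CPM in null and 634 CPM in control fibroblast nuclei (log2 -0.97), and Fap, fibroblast activation protein, had 587 CPM and 858 CPM (log2 -0.55). The inhibitors Timp3 (185 CPM and 148 CPM; log2 0.32) and Serpinf1 (log2 0.43) were higher, as was Serping1 (log2 0.31), though Timp3 and Serping1 had ratios of -0.27 and -0.58 in nuclei with under 10% secretory UMIs. Mmp2, the gelatinase, had 85.1 CPM and 97.9 CPM, within counting error, but was lower in nuclei with under 10% secretory UMIs (log2 -0.87, -1.68 to -0.14).

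**Figure D4:**
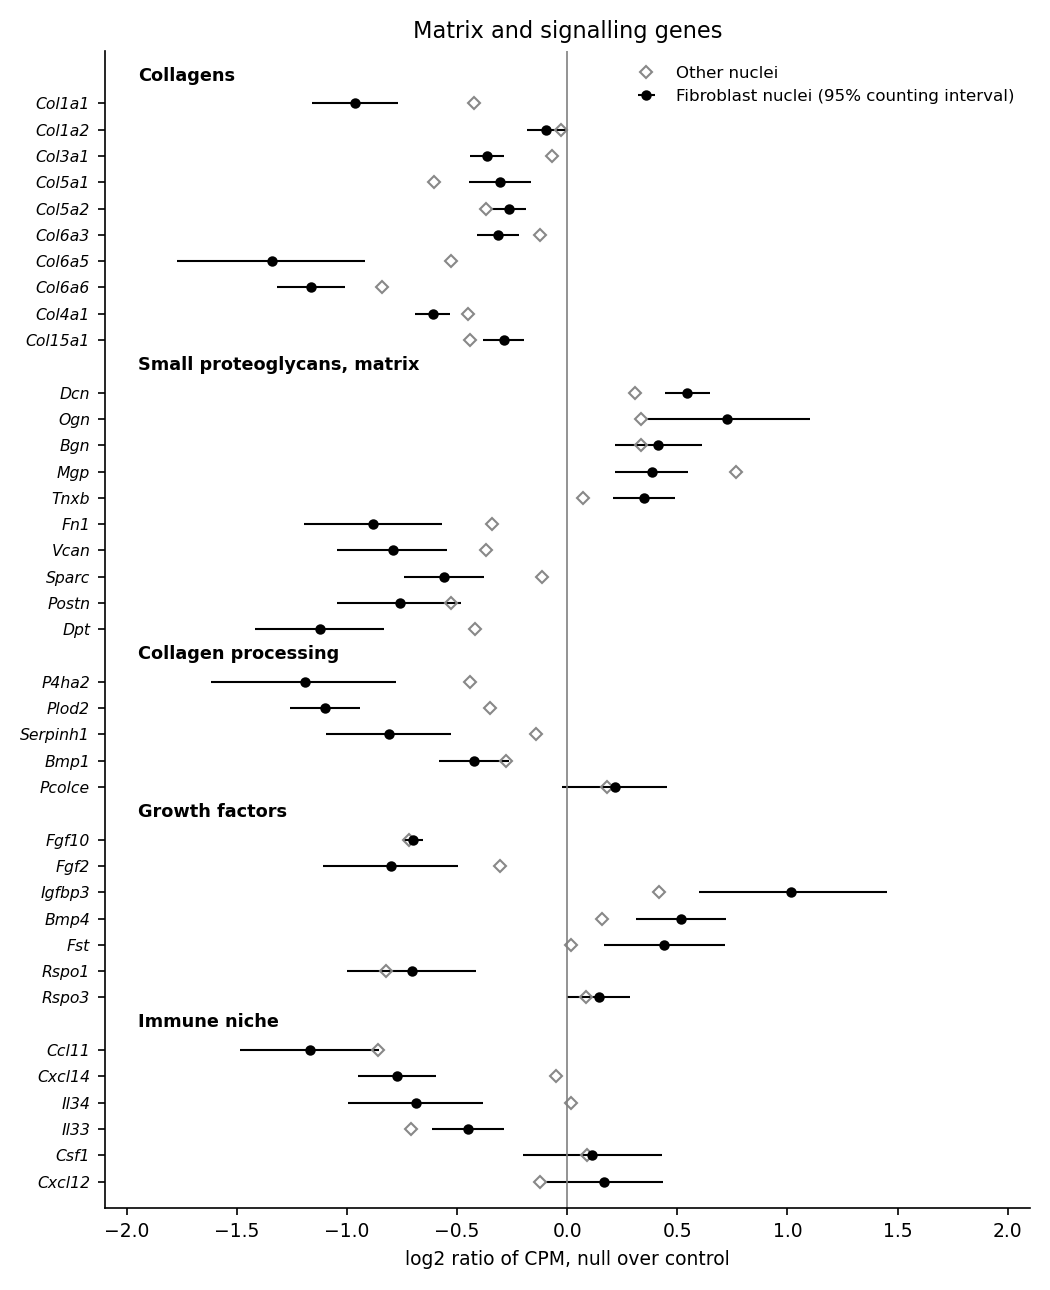
Log2 ratio of CPM, null over control, in fibroblast nuclei (black points with 95% counting intervals) and in all other nuclei (open diamonds) for matrix and signalling genes by role. The collagens shown, most collagen enzymes shown, Fgf10, Fgf2 and Rspo1 lie left of 0 (Col1a1 -0.96, Plod2 -1.10, Fgf10 -0.70) and the small proteoglycans, Igfbp3, Bmp4, Fst and Rspo3 lie right of it (Dcn 0.54, Igfbp3 1.02). The genes drawn were a choice. Measured collagens not drawn had ratios on both sides of 0, with Col6a2, Col12a1 and Col4a2 above it within counting error.

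Of 18 measured BMP and TGF-beta signalling genes 4 were higher and 7 lower, and 6 were higher and 5 lower after subtraction of free RNA. Their median log2 ratio was 0.05, or -0.18 in nuclei with under 10% secretory UMIs. Bmp4, a ligand of mesenchyme, had 503 UMIs in null and 332 in control fibroblast nuclei, or 111 CPM and 77.7 CPM (log2 0.52, 0.31 to 0.72), and follistatin (Fst), which binds activins, had 59.7 CPM and 44.0 CPM (log2 0.44). Fst turned to -0.09 in nuclei with under 10% secretory UMIs, and Bmp4 had 0.62 (-0.02 to 1.23). Bmper, which binds BMPs, was lower (117 CPM and 158 CPM; log2 -0.43), and Tgfb2 too (log2 -0.32), while the receptors Bmpr1a and Tgfbr1 were higher (log2 0.19 and 0.20). With under 10% secretory UMIs Bmper (-0.41) and Tgfbr1 (0.03) were within counting error. Of 14 measured WNT ligands and modulators 2 were higher and 3 lower, with a median of -0.02 that turned to 0.04 after subtraction of free RNA. Wnt9a had 46 null and 20 control UMIs (log2 1.12), Rspo1 had 35.6 CPM and 58.1 CPM (log2 -0.71), and Rspo3 had 193 CPM and 175 CPM (log2 0.14, 0.00 to 0.29). The R-spondins thus differed unequally, and Rspo3 had a log2 ratio of -0.56 in nuclei with under 10% secretory UMIs, where that of Rspo1 was -0.97 (-2.17 to 0.05). Of 17 hedgehog and retinoic acid genes 3 were higher and 6 lower. Gli1, a target of hedgehog, had 22 null and 47 control UMIs (log2 -1.18), and its fellow factors Gli2 and Gli3 had log2 ratios of -0.36 and -0.24. Smo, the hedgehog transducer, was higher (log2 0.32), and so was Aldh1a1, which makes retinoic acid (549 CPM and 426 CPM; log2 0.37), but neither was in nuclei with under 10% secretory UMIs (log2 0.05 for Smo and -0.03 for Aldh1a1).

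GM-CSF acts on myeloid cells, so the signals that fibroblasts give to immune cells and its own receptor were looked at. Csf2ra, the receptor's alpha chain, had 43 UMIs in null and 64 in control fibroblast nuclei (2.42% and 4.58% of them had a UMI), beside 94.5 CPM and 152 CPM in macrophage-like nuclei of the same libraries, which numbered 156 and 178. Csf2rb, the signalling chain, had 1 and 0 UMIs in fibroblast nuclei and 34.1 CPM and 26.7 CPM in macrophage-like ones. The Csf2ra log2 ratio of null over control fibroblast nuclei was -0.66 (-1.25 to -0.08). Its level there was below that of the other nuclei (15.9 CPM in the null and 26.3 CPM in the control library), with log2 ratios of fibroblast over other nuclei of -0.74 and -0.81, and close to that of the free RNA (8.43 CPM and 15.2 CPM). After subtraction of the estimated free RNA 29.7 null and 42.6 control UMIs were left, with a log2 ratio of -0.57 (-1.29 to 0.14), so the difference was then within counting error. Of 21 measured cytokine, chemokine and complement genes 2 were higher and 9 lower (median log2 -0.11, and -0.12 in other nuclei). Ccl11 (eotaxin), which attracts eosinophils, had 126 null and 267 control UMIs, or 27.8 CPM and 62.5 CPM (log2 -1.17, -1.48 to -0.86). Cxcl14 had 95.5 CPM and 163 CPM (log2 -0.77; -0.05 in other nuclei). Il34, a ligand of the macrophage receptor CSF1R, had 33.1 CPM and 53.4 CPM (log2 -0.69; 0.02 in other nuclei), while Csf1, the other ligand of that receptor, had 40.0 CPM and 37.0 CPM (log2 0.11, -0.20 to 0.43). Il33, an alarmin of stromal nuclei, had 124 CPM and 169 CPM (log2 -0.45, -0.61 to -0.29). Cxcl12 (55.7 CPM and 49.6 CPM) and Il15 (190 CPM and 202 CPM) did not differ beyond counting error, and the interleukins Il7 and Il6 had at most 4 UMIs. Of the 4 cytokine receptors in the list Il1r1 (107 CPM and 155 CPM; log2 -0.54), Osmr (log2 -0.34) and Il6st (log2 -0.24) were lower, and Tnfrsf1a was within counting error (27.2 CPM and 29.3 CPM; log2 -0.11). The atypical chemokine receptor Ackr4 (log2 0.72) was higher. Il6st turned to 0.23 in nuclei with under 10% secretory UMIs, and there Il1r1 was at -0.13 (-0.62 to 0.33).

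Levels of these signals were set beside those in endothelial-like and macrophage-like nuclei, and no epithelial class was compared. Il33 was at 124 CPM in null and 169 CPM in control fibroblast nuclei, against 5.70 CPM and 9.22 CPM (1 and 2 UMIs) in endothelial-like nuclei, which numbered 79 null and 82 control. Rspo3 was at 193 CPM and 175 CPM in fibroblast nuclei and at 11.4 CPM and 9.22 CPM (2 and 2 UMIs) in endothelial-like nuclei. Csf1 was at 40.0 CPM and 37.0 CPM in fibroblast and 34.2 CPM and 27.6 CPM in endothelial-like nuclei, the latter from 6 null and 6 control UMIs, too few to order them. Kitl and Cxcl12 were higher outside fibroblasts, with Kitl at 91.3 CPM and 111 CPM in fibroblast nuclei and 456 CPM and 590 CPM in endothelial-like nuclei, and Cxcl12 at 55.7 CPM and 49.6 CPM in fibroblast nuclei and 171 CPM and 138 CPM in endothelial-like ones. Igf1 was at 144 CPM and 142 CPM in fibroblast and 247 CPM and 303 CPM in macrophage-like nuclei. Vegfc too was higher in endothelial-like nuclei (154 CPM and 382 CPM) than in fibroblast nuclei (24.3 CPM and 35.6 CPM).

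Of 32 measured transcription factors of mesenchyme 2 were higher and 16 lower, but most by little, with a median log2 ratio of -0.08, or 0.01 with the abundant free RNA genes left out of the totals. Creb5, which also marked adventitial fibroblasts, had 66.3 CPM in null and 118 CPM in control fibroblast nuclei (log2 -0.83), and Zeb2 had 788 CPM and 1160 CPM (log2 -0.56). Msx1 (71 null and 34 control UMIs; log2 0.98) was higher. Prrx1, Tbx15 and Runx2, which mark mesenchyme and its skeletal lineage, had log2 ratios of -0.19, -0.31 and -0.23 (Runx2 of 0.06 in nuclei with under 10% secretory UMIs). Pitx1 and Foxp1 did not differ beyond counting error, although Foxp1 was higher with under 10% secretory UMIs (log2 0.62, 0.44 to 0.79). When subclusters with markers of other classes were left out, both were lower. Foxp1 was then at -0.29 (-0.42 to -0.17) and Pitx1 at -0.34 (-0.57 to -0.11).

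Of 24 measured receptors of hormones and growth factors 5 were higher and 12 lower, with a median log2 ratio of -0.05. The balance turned after subtraction of free RNA, with 9 higher and 5 lower and a median of 0.06. The 2 platelet-derived growth factor receptors had opposite signs: Pdgfrb had 721 UMIs in null and 453 in control fibroblast nuclei, or 159 CPM and 106 CPM (log2 0.59, 0.42 to 0.76), and Pdgfra had 523 CPM and 684 CPM (log2 -0.39). The sign of Pdgfrb turned to -0.27 in nuclei with under 10% secretory UMIs. Since Pdgfrb also marks pericytes, the pericyte sum of 168 CPM in null and 178 CPM in control fibroblast nuclei stands beside it, and its part in the result was not tested. Fgfr2, a receptor of FGFs (546 CPM in null and 462 CPM in control fibroblast nuclei; log2 0.24) and the thyroid receptor Thra (log2 0.31; 0.34, -0.42 to 1.05, with under 10% secretory UMIs) were higher. Lower ones were the oestrogen receptor Esr1 (log2 -0.33), the endothelin receptor Ednra (log2 -0.56), the angiotensin receptor Agtr1a (log2 -0.44) and Ptger3 (log2 -0.46). With under 10% secretory UMIs Esr1 and Ednra, both at -0.26, were within counting error. The glucocorticoid receptor Nr3c1 (332 CPM and 333 CPM) did not differ beyond counting error.

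Adhesion and guidance genes had the largest share of lower members, 27 of 38, with 2 higher and a median log2 ratio of -0.33. They were also the longest group, and in other nuclei 28 of 40 were lower with a median of -0.35. Ephb2, an ephrin receptor, had 24.3 CPM in null and 54.3 CPM in control fibroblast nuclei (log2 -1.16). Slit2, the paralogue of Slit3, had 301 CPM and 472 CPM (log2 -0.65), opposite in sign to Slit3. Sema3c and Sema6d, semaphorins, had log2 ratios of -0.69 and -0.66 (Sema3c -0.39, within counting error, with under 10% secretory UMIs), and integrin alpha V (Itgav) one of -0.56. The 1 control nucleus with neuronal transcripts bore on several of the lowest: Ncam2 had a log2 ratio of -2.11 with it and -0.72 (-1.49 to 0.03) without it, Cdh2 of -1.35 with it and -0.82 (-1.69 to 0.03) without it, and Unc5c of -0.99 with it and -0.74 without it. Unc5c also led a subcluster of 11 null and 23 control nuclei (0.682% and 1.91% of the fibroblast nuclei). In it no fibroblast marker, in or outside the rule, was at least 2-fold above the other fibroblast nuclei, while 2 mucous acinar markers were, so its identity is open. With under 3 markers of any other class, it stayed in the set without subclusters of other classes. The part of that subcluster in the Unc5c ratio was not tested. Dcc, a netrin receptor, was the higher exception. It had 106 null and 37 control UMIs, or 23.4 CPM and 8.66 CPM (log2 1.44, 0.88 to 2.02), and 13 of the control UMIs came from the nucleus with neuronal transcripts, without which the log2 ratio was 2.05. In other nuclei the Dcc ratio was -0.58.

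Of 18 clock genes 2 were higher (Dbp, log2 0.65, and Hlf, log2 0.28, or -0.43 in nuclei with under 10% secretory UMIs) and 5 lower, among them Arntl, the partner of Clock (14.4 CPM in null and 25.8 CPM in control; log2 -0.84), and Nr1d2 (log2 -0.32). The median of the clock genes was -0.11, and 0.01 after subtraction of free RNA. With under 10% secretory UMIs Dbp (0.82, -0.06 to 1.66) and Nr1d2 (-0.15) were within counting error. Dbp and Arntl had log2 ratios of 0.79 and -0.87 in other nuclei, the same signs. Of 14 measured immediate early genes 2 were higher and 4 lower: Dusp1 had 61.9 CPM and 132 CPM (log2 -1.09), Egr1 had 45 null and 91 control UMIs (log2 -1.10), and Ier2 was higher (log2 0.68). Fos had 4 null and 8 control UMIs. Of 13 cell cycle genes 3 were higher and 3 lower, and 4 higher and 1 lower after subtraction of free RNA. Top2a had a log2 ratio of 0.60, which became 0.01 when subclusters with markers of other classes were left out.

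Highest in null fibroblast nuclei, ranked by the same bound, was Slc15a2, a transporter of small peptides known from epithelium, with 134 null and 11 control UMIs (29.6 CPM and 2.58 CPM; log2 3.52, 2.64 to 4.56). It was higher in the other nuclei and the free RNA of the null library too (log2 2.03 in the other nuclei). Pglyrp1, an antibacterial protein, and Azgp1, a secreted glycoprotein, had log2 ratios of 1.76 and 2.26. Pglyrp1 was as much higher in other nuclei and in the free RNA (log2 1.66 and 1.80). The products of acinar cells showed the same: 13 of 15 were higher and none lower in fibroblast nuclei, with a median log2 ratio of 0.42 beside 0.33 in the free RNA, and after subtraction of free RNA 5 were higher and 4 lower of 10. Acinar cells are the known makers of these proteins. The highest gene that stood out in fibroblasts themselves was Ctnna3, an alpha catenin, 46.7-fold above other nuclei in the null and 37.9-fold in the control library. It had 791 null and 336 control UMIs, or 175 CPM and 78.7 CPM (log2 1.15, 0.97 to 1.34). Among the 25 genes furthest above other nuclei Lrrtm3 (289 CPM and 163 CPM; log2 0.83) and Lvrn (301 CPM and 207 CPM; log2 0.54) were higher as well, while Adamtsl2 (71.2 CPM and 127 CPM; log2 -0.84) and Adam12 (227 CPM and 391 CPM; log2 -0.79) were lower. The remainder of the 15 highest were Dennd2d (log2 1.32), Sycp3, Cbr3, Knop1, Dcc, Ifi27l2a (log2 1.07), Zfp867, Cd27, Pgp, Cited2 and Irs3.

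Clustering of the fibroblast nuclei left out the genes that differed at least 2-fold between libraries beyond counting error. Genes that differed by less could enter. The clustering gave 16 subclusters. Of these, 7 carried at least 3 markers of another class, and without them 1280 null and 936 control fibroblast nuclei remained. A group of 23 null and 29 control nuclei was adventitial fibroblast-like, with 9 of 11 adventitial markers at least 2-fold above the other fibroblast nuclei. Pi16 was at 314 CPM in null and 742 CPM in control nuclei of this group, against 5.59 CPM and 7.67 CPM in the rest. A group of 29 null and 25 control nuclei (1.80% and 2.08% of the fibroblast nuclei) was led by the interferon-induced genes Rsad2, Mx2 and Iigp1, so nuclei with an interferon signature were found in both libraries. Another was led by Col24a1, Dcc, Ptn and Il34: Col24a1 was at 253 CPM in null and 268 CPM in control nuclei of the group against 28.3 CPM and 26.8 CPM in the rest, and Dcc at 114 CPM and 24.6 CPM. One was led by Mfap4, Cilp and Itgbl1, and one by Ccdc170, Ifi205, Vit and Mmp3. The subcluster led by Alpl, Chst8, Col6a5, Cnmd and Plk2 had Nr4a3 at 115 CPM in its null and 712 CPM in its control nuclei. It held 102 null and 325 control nuclei, but as 8 of its 10 leading genes differed at least 2-fold between the libraries, its size is not read as a difference. The nuclei of the 2 libraries were spread differently over the subclusters. One led by Map7d3, Rgs7bp and Evc held 379 null and 83 control nuclei (23.5% and 6.91%), and one led by Atpif1, Elob and Dcpp3 held 192 and 28 (11.9% and 2.33%). Secretory UMIs were 17.1% and 19.4% of the UMIs in these subclusters and 12.2% in that led by Alpl, and the part of secretory RNA in the split was not tested. The levels of all fibroblast nuclei above are therefore taken over unlike mixtures of subclusters.

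At a coarser resolution, 4 subclusters were large enough to compare gene levels within each. They held 6.01%, 36.8%, 35.8% and 16.6% of null and 5.82%, 31.4%, 38.3% and 18.7% of control fibroblast nuclei. They were an adventitial fibroblast-like group of 97 null and 70 control nuclei with 10 of 11 adventitial markers (group 1), 2 groups with few markers of other classes (groups 2 and 3), and a group that carried markers of several other classes (group 5). In group 5, 7 of 12 luminal duct, 7 of 8 cycling, 6 of 10 macrophage, 5 of 14 acinar and 5 of 7 ionocyte markers reached 2 times their level in the remaining fibroblast nuclei, or more, and no marker of the rule did, so it is a mixture and not a fibroblast type. Nr4a3 was lower in null nuclei of each, at 55.5 CPM against 280 CPM in group 1, 36.8 CPM against 199 CPM in group 2, 86.1 CPM against 638 CPM in group 3 and 69.3 CPM against 184 CPM in group 5. Fgf10 was lower in each by a smaller ratio, with log2 values of -0.35, -0.56, -0.66 and -0.74 in groups 1, 2, 3 and 5. Pde10a (-0.89, -1.13, -1.12 and -1.24) and Col1a1 (-1.22, -1.14, -0.49 and -0.87) were lower in each, and Slit3 (0.28, 0.33, 0.35 and 0.23) and Dcn (0.42, 0.34, 0.86 and 0.31) were higher. Pdgfrb, with enough UMIs in groups 2, 3 and 5, had log2 ratios of 0.65, 0.61 and 0.62. Col6a6 was not uniform: its log2 ratio was 0.03 in the adventitial fibroblast-like group and -1.10, -1.14 and -1.68 in groups 2, 3 and 5. The ratios of Nr4a3, Fgf10, Pde10a and Dcn thus kept their sign in each of these 4 groups. The groups may still be unlike mixtures of finer subclusters in the 2 libraries, which was not tested. At resolution 1.5 a subcluster led by Col24a1 held 158 null and 53 control nuclei, and another led by it held 51 null and 160 control nuclei.

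**Figure D5:**
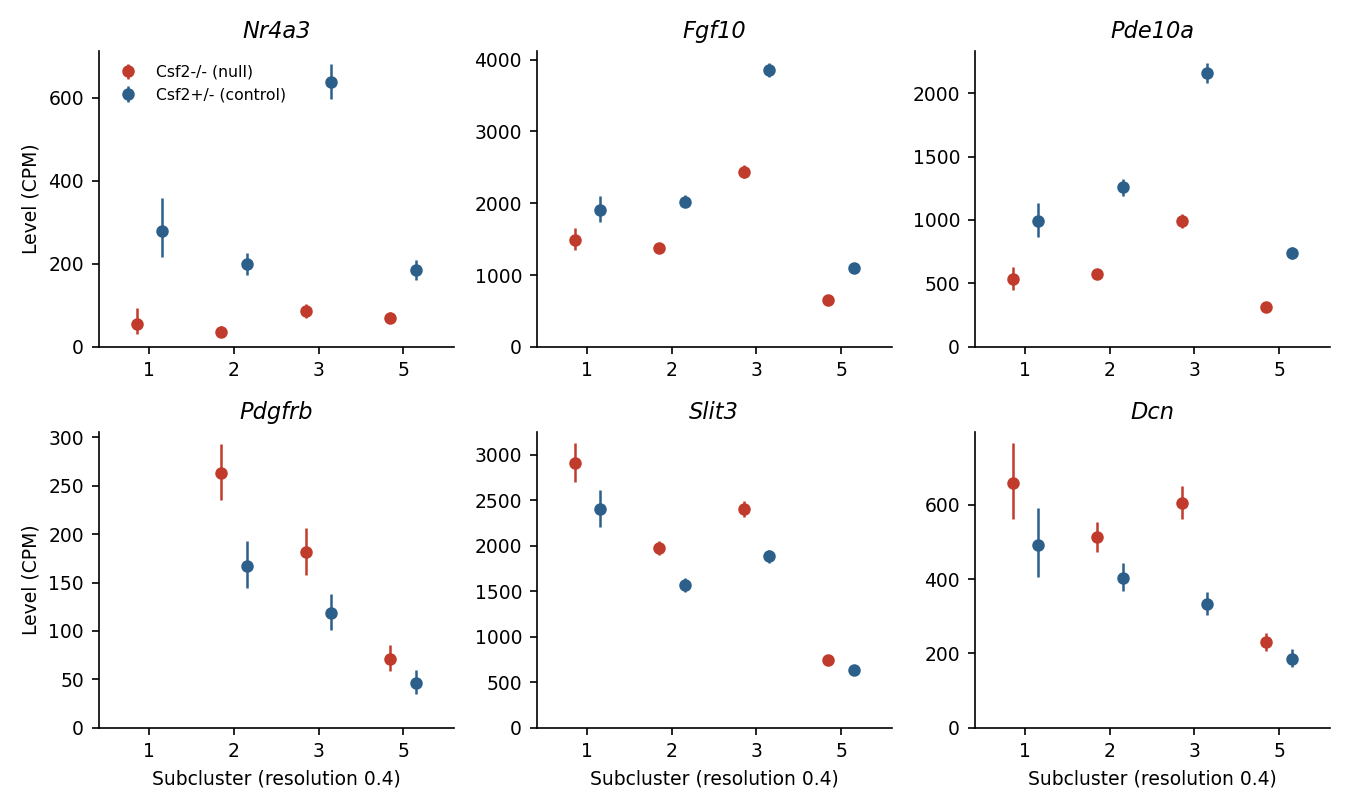
Level (CPM, with exact 95% counting intervals) of 6 genes in null (red) and control (blue) nuclei of the 4 large subclusters at resolution 0.4, of which subcluster 5 is a mixture with markers of other classes. In every subcluster shown Nr4a3, Fgf10 and Pde10a are lower and Slit3, Pdgfrb and Dcn higher in null nuclei; Nr4a3 is at 86.1 CPM in null and 638 CPM in control nuclei of subcluster 3.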

How the data were processed

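Nuclei of whole mouse salivary gland were profiled by 10x 3' single-nucleus RNA sequencing, 1 library per Csf2 genotype. The matrices deposited by the authors held UMI counts that had not been normalized, made with Cell Ranger 7.0.0 on GRCm39 per the submitters' processing notes. The annotation and the handling of intronic reads were not given in the sources used here. Fibroblast nuclei were chosen by the stated rule, and their counts were summed per library over 26033 genes. Genes with at least 50 UMIs over both libraries were compared as CPM ratios with exact conditional binomial 95% intervals (SciPy 1.17.1), and no genotype test was made. Library totals were 75630815 UMIs in the null and 76002888 in the control library. Free RNA was the sum of barcodes under 1000 UMIs with at least 27% secretory UMIs, scaled by secretory UMIs where it was subtracted. Named genes were the 15 highest and 15 lowest by the interval bound nearest 0, outside the free RNA genes, and the 25 highest above other nuclei. A second ranking without genes of which 1 nucleus held over 10% of UMIs was added after the values were seen. Subclusters came from scanpy 1.11.5 and leidenalg 0.10.2 (resolution 0.8, with 0.4 and 1.5 as alternatives). Other depth, marker, secretory, scaling and count limits were tried. The intervals were tested on simulated data. Gene spans and promoters came from RefSeq on GRCm38.p6, another build than that of the files. Spans were matched by Ensembl gene identifier, or by gene name where no identifier matched, and promoters by gene name. The nuclei and gene lists were chosen with earlier results of these data known. Some genes counted in the lists are not reported here by name.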

Additional observations from a re-analysis of the deposited data

Results flagged for a closer look

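Several genes of the lists had opposite signs in fibroblast and in other nuclei, each beyond counting error, and the difference between the nuclei was not tested. Higher in null fibroblast nuclei and lower in the other null nuclei were Slit3 (log2 0.25 and -0.26), Klf15 (0.72 and -0.24), Timp3 (0.32 and -0.28), Boc (0.25 and -0.33), Fgfr2 (0.24 and -0.11), Igf1r (0.079 and -0.23), Irs1 (0.38 and -0.16) and Pde4d (0.10 and -0.03). Lower in null fibroblast nuclei and higher in the others were Zbtb16 (-0.25 and 0.13), Per3 (-0.26 and 0.08) and Cilp, a matrix protein of 23 null and 47 control UMIs in fibroblast nuclei (-1.11 and 0.98). Zbtb16 and Klf15 are both induced by glucocorticoids, and they had opposite signs in fibroblast nuclei. The direction of Pde4d was not settled, since it turned to -0.31, -0.29, -0.64 and -0.15 under 4 other settings. The Pde4d ratio was 1.10, higher beyond counting error, with under 10% secretory UMIs. In nuclei with under 10% secretory UMIs Slit3 and Timp3 turned to -0.13 and -0.27, and Irs1 (0.19), Igf1r (0.17) and Per3 (-0.17) were within counting error.

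Barcodes outside the rule also held fibroblast markers. Under 1000 UMIs, 55 null and 199 control barcodes had at least 4 of the 10 markers. With at least 1000 UMIs but 27% or more secretory UMIs, 60 null and 184 control barcodes did. More such barcodes lay outside the rule in the control library, so the number of fibroblast nuclei per library carries that difference as well.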

How the results depend on the processing

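The share of fibroblast nuclei had a log2 ratio of -0.48 with at least 3 markers, -0.025 with at least 2000 UMIs, 0.30 with under 20% secretory UMIs and 0.31 per all barcodes. Genes higher in null numbered 601 with under 10% secretory UMIs, 2076 after subtraction of free RNA, 2091 with free RNA genes out of the totals and 616 without nuclei carrying markers of another class, and genes lower 617, 1397, 1362 and 1195. At least 2-fold higher were 383 after subtraction, 160 with free RNA genes out of the totals, 265 with at least 5 UMIs and 19 with at least 200 UMIs. At least 2-fold lower were 99 without nuclei carrying other markers, 444 with at least 5 UMIs and 52 with at least 200. Genes at least 4-fold above other nuclei numbered 58 with under 10% secretory UMIs. Subclusters numbered 7 at resolution 0.4 and 9 without nuclei carrying other markers. In nuclei with under 10% secretory UMIs (62 null, 222 control) the sign turned for Aldh1a1 (-0.031), Bgn (-0.035), Fst (-0.090), Hlf (-0.43), Il6st (0.23), Mgp (-0.14), Pdgfc (0.085), Pdgfrb (-0.27), Podn (-0.23), Rspo3 (-0.56), Runx2 (0.065), Scara5 (-0.31), Serping1 (-0.58), Slit3 (-0.13) and Timp3 (-0.27). Without nuclei carrying other markers it turned for Il6st (0.043), Lama2 (0.011), Ntn4 (-0.40) and Pde4d (-0.31), and with equal weight per nucleus for Fgf14 (0.41), Lama2 (0.045), Pappa (0.045) and Pde4d (-0.29). Without subclusters of other classes Lama2 was at 0.0087 and Pde4d at -0.64, without nuclei carrying non-epithelial markers at 0.027 and -0.15, and with free RNA genes out of the totals Lama2 was at 0.026. The cause was not tested. Over the named genes and alternatives, 2573 values kept sign and side, 147 no longer had an interval beyond 0 and 45 newly had one. Of the list medians, 260 moved by less than the counting error of their genes and 20 by more. The sign turned in 23 of the 280, over 7 of the 20 lists, whose main medians were at most 0.15 in size. No paired analysis was possible because each genotype had 1 library, and for the same reason no replicate could be left out. Depth limits single genes: Gli1, with 22 null and 47 control UMIs, had an interval of -1.98 to -0.42.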
